A study of Mus musculus with 6 samples.

Results

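The interferon-stimulated genes described here are 42 genes, out of the 56884 genes listed for each library, that were picked by symbol as members of the cellular response to interferons. All 42 were listed in each of the 6 single-cell RNA libraries and each had at least 1 UMI (unique molecular identifier, which tags 1 captured RNA molecule) in the cells of each library. The libraries came from mice in which a secreted factor was deleted in pericytes, the mural cells of capillaries, and each pooled 2 mice per genotype. The lungs were taken at postnatal day (P) 21, after CD45+ and Ter119+ cells had been depleted, from Bdnf lox/lox controls and Bdnf iPCKO mutants and from Hgf lox/lox controls and Hgf iPCKO mutants. The cerebral cortex was taken at P12, after the meninges and myelin had been removed, from Nodal lox/lox controls and Nodal iPCKO mutants. The mutants carried Pdgfrb(BAC)-CreERT2, a tamoxifen-inducible Cre driven in mural cells and some fibroblasts, on top of the lox/lox alleles, whereas the controls carried the lox/lox alleles without CreERT2. All mice of both genotypes received 50 µg tamoxifen daily from P1 to P3.

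Each genotype was 1 library, so no difference could be set against the spread between replicates, no test was made, and genotype and library cannot be told apart. The exact 95% intervals given below cover counting error only. Tissue, age and deleted gene changed together between lung and cortex and cannot be told apart either.

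Interferons are secreted proteins that cells release on sensing viral or misplaced nucleic acid. Type I interferons bind the receptor chains IFNAR1 and IFNAR2, which act through the kinases JAK1 and TYK2 on a complex that holds STAT2 and IRF9, and type II interferon binds IFNGR1 and IFNGR2. Promoters of the target genes carry the interferon-stimulated response element (ISRE) for type I and the gamma-activated site (GAS) for type II interferon. Endothelial cells and microglia, the resident macrophages of the brain, are both known to respond to interferons.

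The promoters of many of these genes carry the ISRE core, and the windows below are shown because they hold the sequence that defines the response. The core was searched as GAAANNGAAA and, on the other strand, TTTCNNTTTC, from 250 bases before to 50 bases after the start of the canonical transcript in GENCODE vM39. It was found in 23 of the 42 members (54.8%), against 3.84% of all 21757 protein-coding genes. The GAS core TTCNNNGAA, which reads the same on both strands, was found in 6 of 42 (14.3%) against 8.82%, and a match is a description of the letters, not of a bound site. Each window has 30 bases of the GRCm39 genome, is written 5′ to 3′ on the strand of the gene, and has a core in capitals. In the Isg15 window a further match overlaps the marked core and begins in the lower-case letters before it. Ifit3 and Ifit3b, neighbouring genes at chr19:34560797-34560826 and chr19:34585193-34585222 (plus strand), had identical windows.
Ifit3: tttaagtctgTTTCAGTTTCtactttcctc
Ifit3b: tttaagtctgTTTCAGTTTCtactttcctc
Ifit1: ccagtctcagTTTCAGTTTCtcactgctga
Isg15: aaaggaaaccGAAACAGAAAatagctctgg
Usp18: ggatctagggGAAAACGAAAgcttggcggt
Rsad2: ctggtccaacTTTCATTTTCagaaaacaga
Ifi203: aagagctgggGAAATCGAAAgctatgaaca
Ifi204: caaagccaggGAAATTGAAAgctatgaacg
Ifi206: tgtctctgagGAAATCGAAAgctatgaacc
Slfn5: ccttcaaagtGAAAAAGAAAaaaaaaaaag
The Ifit1 window is at chr19:34618194-34618223 (plus strand), that of Isg15 at chr4:156285322-156285351 (minus strand), that of Usp18 at chr6:121222796-121222825 (plus strand) and that of Rsad2 at chr12:26506552-26506581 (minus strand). The windows of Ifi203, Ifi204 and Ifi206 are on the minus strand at chr1:173770074-173770103, chr1:173594627-173594656 and chr1:173318905-173318934, and that of Slfn5 is at chr11:82842763-82842792 (plus strand). The 3 genes of the Ifi200 cluster share the run of letters that follows the core, and reads of such close copies were divided between them by an estimate, so their sums are also given below. Members with and without the core had medians close to each other: the median log2 ratio of mutant over control was -1.08 with and -1.25 without it in Bdnf lung endothelium, -1.59 and -1.70 in Hgf lung endothelium, and 1.27 and 1.35 in cortical microglia.

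Cells were sorted into classes by marker genes and are named X-like for that reason. Barcodes with at least 1500 UMIs, or 700 in the Hgf libraries, were taken as cells, which left 17155 and 24311 cells in the Bdnf control and mutant, 14623 and 16156 in the Hgf pair and 3237 and 5009 in the Nodal pair, with a median of 2841 to 7790 UMIs per cell. Pairs of libraries shared 21 to 457 cell barcodes, where independent draws give 17.8 to 457. By ratio, the pairs furthest above were the mutant cortex with the Hgf mutant lung (116 against 88.7) and with the Hgf control lung (108 against 80.3). In number, the furthest above was the Bdnf mutant with the Hgf control lung (432 against 389.5). In pericyte-like cells the deleted genes had 10 and 2 UMIs (Bdnf, control and mutant), 23 and 10 UMIs (Hgf) and 186 and 0 UMIs (Nodal). Levels are given as CPM, the UMIs of a gene in every 1000000 UMIs of the class. A member counts as measured in a comparison when both libraries together had at least 20 of its UMIs, and as called when the levels differed by at least 1.5-fold. In pooled cells of a class, fewer expressing cells and less RNA per cell cannot be told apart, except where values per cell are given.

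Among the lung classes, the summed level of the 42 genes was highest in the endothelial-like cells of the controls, at 2436 CPM (95% interval 2416 to 2456) in the Bdnf control and 2244 CPM (2219 to 2269) in the Hgf control, against 199 and 221 CPM in AT2-like cells (alveolar epithelial type 2 cells, which make surfactant). It was lower in the endothelial-like cells of both mutants, at 1491 CPM in Bdnf iPCKO and 1101 CPM in Hgf iPCKO. In the cortex the sum was 754 CPM in control and 1309 CPM in mutant microglia-like cells, 754 and 1251 CPM in pericyte-like cells, 185 and 305 CPM in astrocyte-like cells, and 1116 and 1077 CPM in endothelial-like cells. The sum was thus lower in the mutant library in lung endothelium and higher in the mutant library in cortical microglia, pericytes and astrocytes, while cortical endothelium lay close to its control. Barcodes without a cell (10 to 100 UMIs), which hold free RNA, gave 758 and 614 CPM in the Bdnf pair, 845 and 657 CPM in the Hgf pair and 932 and 906 CPM in the Nodal pair.

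**Figure D1:**
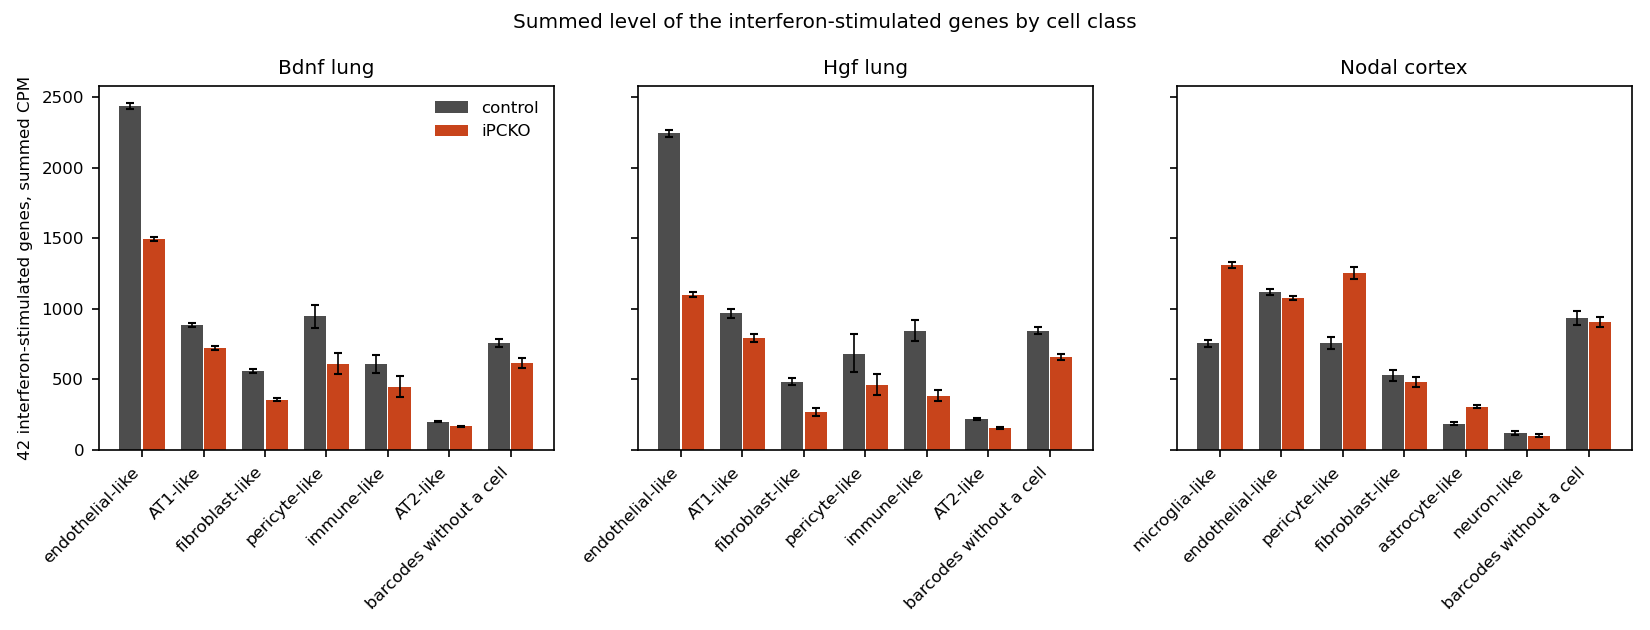
Summed CPM of the 42 interferon-stimulated genes (vertical axis) by cell class in control (grey) and iPCKO (red) libraries of the 3 pairs, 1 library per bar, with exact 95% intervals for counting error. Lung endothelial-like cells stand highest among lung classes at 2436 and 2244 CPM in the controls and lower in the mutants, while cortical microglia-like cells stand at 754 CPM (control) and 1309 CPM (mutant).

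A single gene, Slfn5, held much of the endothelial sum. Slfn5, a Schlafen family protein known as an interferon-induced regulator of transcription, gave 28.4% and 42.4% of the members' UMIs in the Bdnf control and mutant and 27.9% and 42.9% in the Hgf control and mutant. Its level was 692 and 633 CPM in the Bdnf pair (log2 ratio -0.13, 95% interval -0.16 to -0.10) and 626 and 473 CPM in the Hgf pair (-0.40, -0.45 to -0.36), so it stayed below the 1.5-fold call in both. The log2 ratio of the summed level was -0.71 with Slfn5 and -1.02 without it in the Bdnf pair, and -1.03 and -1.37 in the Hgf pair.

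In Bdnf lung endothelial-like cells (4539 control and 5976 mutant cells) 39 members were measured, 35 were called lower and none was called higher. Over all 19827 genes measured in that class, 7.54% were called lower and 8.49% higher. The members' median log2 ratio was -1.11, beside -0.01 for all genes, and the interval lay below 0 for 38 of the 39. In Hgf lung endothelial-like cells (5072 and 6644 cells) 38 members were measured, 34 were called lower and none higher, against 17.1% and 14.5% of 17397 genes, and the median was -1.63 beside -0.05. The interval lay below 0 for 37 of the 38. The 2 lung pairs share no library, and all 38 members measured in both were lower in both mutants, as were 5955 of the 17070 genes measured in both. Mx1, Oas2 and Oas3 were under the minimum in both pairs, and Ifi206 in the Hgf pair.

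Among the transcription factors, Irf7, the factor that amplifies type I interferon production, was at 11.6 and 4.27 CPM in the Bdnf control and mutant (log2 ratio -1.44, -1.77 to -1.12) and at 14.6 and 3.79 CPM in the Hgf pair (-1.95, -2.38 to -1.54). Both controls thus lay close together and well above both mutants. Irf9, which binds the ISRE, was at 90.2 and 58.1 CPM in the Bdnf pair (-0.63) and 108 and 42.2 CPM in the Hgf pair (-1.36). Stat2, its partner, was at 109 and 81.1 CPM (-0.43, -0.51 to -0.35), which misses the call, and at 86.3 and 53.2 CPM (-0.70, -0.82 to -0.57), which passes it.

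The sensors of nucleic acid were lower together: 6 of 6 were called lower in the Bdnf pair (median -1.19) and 5 of 5 in the Hgf pair (median -2.65). Zbp1, a sensor of Z-form nucleic acid that can trigger necroptosis, had 49 and 9 UMIs in the Bdnf pair (-2.52, -3.74 to -1.48) and 34 and 2 UMIs in the Hgf pair (-4.36, -7.46 to -2.40). It was thus measured through the control in both pairs. Ifih1, which encodes the RNA sensor MDA5, was at 58.8 and 34.9 CPM (-0.75) and at 52.2 and 28.1 CPM (-0.89), a smaller difference with many more UMIs. The sum of Ifi203, Ifi204 and Ifi206, DNA-binding proteins of the Ifi200 family, was at 127 and 49.4 CPM in the Bdnf pair (-1.36, -1.45 to -1.26) and 87.5 and 13.8 CPM in the Hgf pair (-2.66, -2.87 to -2.46).

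The effectors that act on viral RNA gave the same direction. For Ifit3 and Ifit3b, which bind foreign RNA and whose reads are divided by an estimate, the sum was 24.5 and 13 CPM in the Bdnf pair (-0.91, -1.11 to -0.72) and 39.5 and 20.8 CPM in the Hgf pair (-0.92, -1.12 to -0.73), and Ifit3 alone had -0.84 and -0.68. Ifit1, which recognises RNA caps that lack host methylation, was at 32.7 and 11.3 CPM (-1.54) and at 35.5 and 11.9 CPM (-1.58). Between the 2 control lungs the sum of Ifit3 and Ifit3b was itself higher in the Hgf control (0.69, 0.52 to 0.86), past the call, while Ifit1 was close. Among the oligoadenylate synthetase genes, Oasl2 was at 68.8 and 29.4 CPM in the Bdnf pair (-1.23, -1.35 to -1.10) and 108 and 19.8 CPM in the Hgf pair (-2.45, -2.63 to -2.28). Oas1a, which makes the messenger that activates RNase L, had 68.5 and 17 UMIs (-2.09) and 59 and 3 UMIs (-4.57, -6.89 to -2.95), the lowest ratio of any member in the Hgf pair, from a mutant close to 0. Oasl1, a repressor of Irf7 translation, was lower in the Bdnf pair (-1.49) and had 29.3 and 23.8 UMIs in the Hgf pair (-0.57, -1.39 to 0.29).

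Isg15 encodes a ubiquitin-like modifier, Usp18 the enzyme that removes it and that also restrains the type I receptor, and Herc6 a ligase that attaches it. Isg15 was at 14.6 and 5.74 CPM in the Bdnf pair (-1.35, -1.63 to -1.07) and 30.9 and 6.63 CPM in the Hgf pair (-2.22, -2.54 to -1.92). Usp18 was at 9.11 and 4.23 CPM (-1.11, -1.45 to -0.77) and 8.72 and 2.75 CPM (-1.66, -2.20 to -1.18). All 3 genes of this system were called lower in both pairs. Rsad2, which encodes the antiviral enzyme viperin, had 51 and 31 UMIs in the Bdnf pair (-0.80) and 62 and 17 UMIs in the Hgf pair (-2.14), and its neighbour Cmpk2 had -1.28 and -2.0.

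The interferon-inducible GTPases, which attack the vacuoles of intracellular pathogens, were called lower in 7 of 7 cases in both pairs, with medians of -1.12 and -1.72. Gbp2 was at 51.1 and 29 CPM in the Bdnf pair (-0.82, -0.95 to -0.69) and 90.4 and 27.4 CPM in the Hgf pair (-1.72, -1.88 to -1.57). Igtp was at 41.5 and 20.7 CPM (-1.0, -1.16 to -0.85) and 42 and 12.7 CPM (-1.73, -1.96 to -1.50). Gbp4 showed how far the 2 control lungs can lie apart: it was at 215 and 62.8 CPM in the Bdnf pair (-1.77), but at 37.8 and 4.54 CPM in the Hgf pair (-3.06). Much of the Gbp6 signal came from reads that fit several genes, and the sum of Gbp4 and Gbp6 gave -1.77 and -2.95.

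Of the other members, Bst2, which encodes tetherin and holds budding virus at the membrane, was at 18.7 and 10.7 CPM in the Bdnf pair (-0.80, -1.02 to -0.58) and 35 and 19.4 CPM in the Hgf pair (-0.85, -1.06 to -0.65). Ifi27l2a, a small membrane protein gene that serves as a common marker of the interferon response, had 76 and 7 UMIs in the Bdnf pair (-3.52, -4.88 to -2.41) and 18 and 2 UMIs in the Hgf pair (-3.44, -6.59 to -1.38). Ifi44 was at 41.3 and 6.91 CPM (-2.58) and 42.4 and 3.73 CPM (-3.51), which puts it among the members furthest below their control in both lungs. Ifi35 was nearest to its control after Slfn5 in the Bdnf pair, at 52.9 and 42.5 CPM (-0.32).

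**Figure D2:**
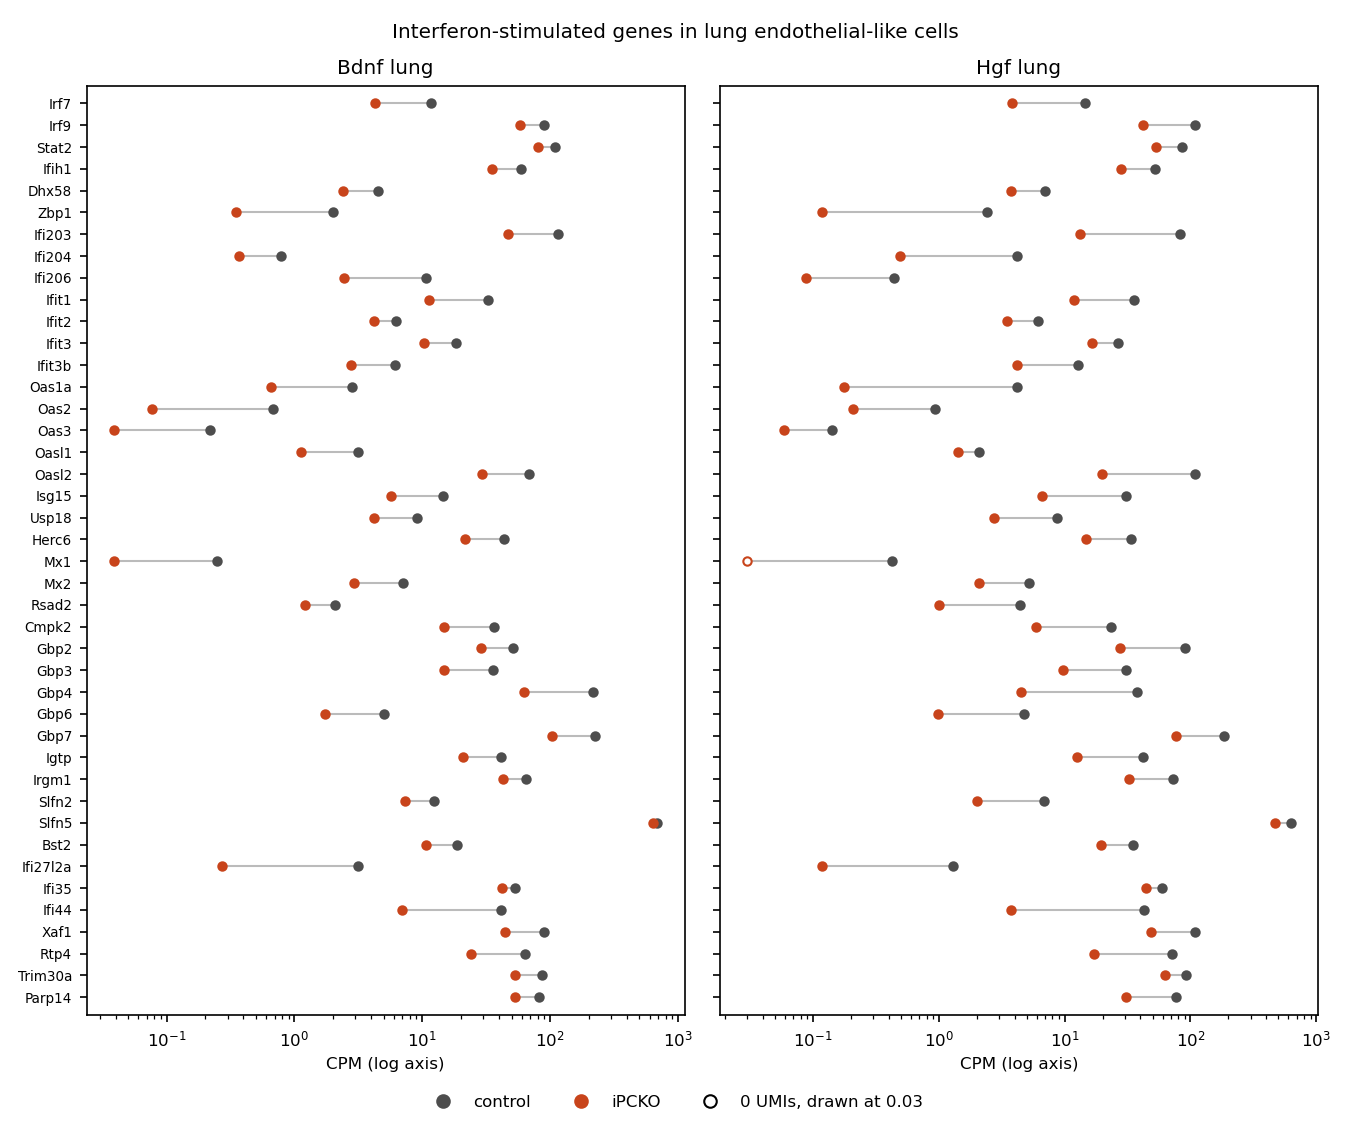
CPM (log axis) of each of the 42 genes in lung endothelial-like cells of the control (grey) and iPCKO (red) library, 1 library per point, for the Bdnf pair (left) and the Hgf pair (right), with open points for 0 UMIs. The red points lie left of the grey points for each measured gene, by least for Slfn5 (692 and 633 CPM in the Bdnf pair).

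The lower levels were found in capillary subsets as well. In gCap-like cells, the general capillary cells, 34 of 38 measured members were called lower and none higher in the Bdnf pair (7.7% and 9.04% of all genes; median -1.10) and 33 of 36 lower and none higher in the Hgf pair (18% and 13.2%; median -1.67). In aCap-like cells, the large capillary cells of gas exchange, these were 16 of 26 lower and none higher (7.78% and 9.71% of all genes; median -0.82) and 22 of 28 lower and none higher (16.4% and 14.1%; median -1.32). Lymphatic endothelial-like cells, with 111 to 143 cells per library, had fewer members measured, 6 of 14 called lower and none higher in the Bdnf pair (10.4% and 12% of all genes) and 9 of 14 lower and 2 higher in the Hgf pair (18.8% and 14.1%). The 2 called higher were Stat2 (23 and 42.5 UMIs, 1.12) and Slfn5 (57 and 74 UMIs, 0.61). The number of distinct members per cell was also lower. After each cell was thinned to 1500 UMIs, 771 of 4528 control cells (17.0%, 95% interval 15.9 to 18.2) of the Bdnf pair and 252 of 5948 mutant cells (4.24%, 3.74 to 4.78) held at least 5 distinct members. In the Hgf pair these were 577 of 3750 (15.4%, 14.2 to 16.6) and 66 of 4554 (1.45%, 1.12 to 1.84), with 1322 and 2090 cells too shallow to be thinned. The share of the members' UMIs held by the top 5% of cells was 17.9%, 18.1%, 18.1% and 18.2% in these 4 libraries.

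The 2 control lungs give the only view of how far 2 control libraries of the same age lie apart, although they carry different lox alleles. In endothelial-like cells, 8 of 40 measured members were called higher and 6 lower in the Hgf control than in the Bdnf control (13.6% and 17.4% of all genes), and the median log2 ratio was 0.06. Single members reached from -4.61 for Ifi206 (263 and 6 UMIs in the Bdnf and Hgf controls) to 2.43 for Ifi204 (19 and 59 UMIs), close copies whose reads are shared. Single genes therefore differed between control lungs by as much as between control and mutant, whereas in these endothelial-like cells the list's median did not. Their Isg15 differed by 1.08, Ifit3 by 0.54, Irf7 by 0.34 and Stat2 by -0.34 on the log2 scale. In other classes the list's median did differ between the control lungs. It was -0.39 in fibroblast-like (33 measured members), -0.52 in pericyte-like (9), -0.61 in club-like (17) and 0.51 in immune-like cells (13). In AT2-like and AT1-like cells it was 0.10 and 0.13.

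Other measures moved with the genotype in lung endothelial-like cells, and their part in these results was not tested. Dissociation and stress genes (9 genes, such as the immediate early genes) were at 8443 and 11150 CPM in the Bdnf pair and 10429 and 11222 CPM in the Hgf pair. The 8 immune markers used for the gate summed to 5.42 and 3.47 CPM and to 9.64 and 7.43 CPM, and none was at 0. The 5 club cell markers were at 756 and 1457 CPM and at 660 and 1988 CPM, the 8 AT2 markers at 2187 and 3235 CPM and at 1868 and 818 CPM, and the 8 endothelial markers at 15746 and 14056 CPM and at 15863 and 12690 CPM. Median UMIs per endothelial-like cell were 4305 and 3367 in the Bdnf pair and 2216 and 1973 in the Hgf pair.

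Outside the endothelium, the lung classes had smaller and less even differences. In fibroblast-like cells 21 of 34 measured members were called lower in the Bdnf pair and none higher (5.8% and 11% of all genes; median -0.69), and 14 of 23 were called lower and 1 higher in the Hgf pair (19.2% and 25.1%; median -1.22). The Hgf class was not alike in the 2 libraries: 88.9% of control but 39.7% of mutant fibroblast-like cells lay in clusters named for fibroblasts, the 8 fibroblast markers were at 81602 and 38809 CPM and the 8 pericyte markers at 150 and 400 CPM, and their part in the ratios was not tested. With cells taken by clusters, the Hgf median was -0.60. Other lists also moved in Bdnf fibroblast-like cells, and their part was not tested. The 5 club markers were at 401 and 1048 CPM, the 8 AT2 markers at 698 and 1149 CPM and the 5 mesothelial markers at 50.2 and 14.3 CPM. Stress genes were at 18479 and 21836 CPM and the 8 fibroblast markers at 79454 and 73666 CPM. Isg15 had 35 and 4 UMIs in Bdnf fibroblast-like cells (-3.09, -5.05 to -1.61), Oasl2 had 266 and 107 UMIs (-1.28) and Gbp2 had 501 and 234 UMIs (-1.06). In Hgf fibroblast-like cells Oasl2 had 43 and 4 UMIs (-2.37) and Gbp2 had 139 and 20 UMIs (-1.74), whereas Stat2, with 89.5 and 43 UMIs, was at 32.7 CPM in both (interval -0.56 to 0.53). Of the other members followed in every class, Stat2 (-0.36) and Irf7 (-0.58) were under the call in Bdnf fibroblast-like cells, while Ifit3 had -0.71, Bst2 -1.0, Ifi27l2a -1.49, Igtp -0.92 and Usp18 -1.07, all past it. In Hgf fibroblast-like cells Ifit3 had 28 and 23 UMIs (0.78), Bst2 -0.43, Ifi27l2a -4.33 from 42 and 1 UMIs, and Igtp -1.87, and Isg15, Irf7 and Usp18 were not measured.

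In AT1-like cells, the flat alveolar epithelial cells, 9 of 28 members were called lower and none higher in the Bdnf pair (5.3% and 16.4% of all genes; median -0.46), and 15 of 26 lower and 2 higher in the Hgf pair (15.9% and 16.3%; median -0.86). In AT2-like cells these were 8 of 33 lower and 4 higher in the Bdnf pair (4.8% and 12.8%; median -0.38), and 15 of 30 lower and 1 higher in the Hgf pair (16.2% and 17.3%; median -0.57). In these epithelial cells some members stood above the control. The share of members called higher was in no comparison larger than that of all genes. Ifit3 in AT2-like cells had 120 and 251 UMIs in the Bdnf pair (1.32, 1.0 to 1.65) and 115 and 88.5 UMIs in the Hgf pair (0.47), and in AT1-like cells 2262 and 2505 UMIs (0.16) and 807 and 1156 UMIs (0.71, 0.58 to 0.84). Slfn5 was also above its control in AT2-like cells, by 0.85 and 0.82, and in AT1-like cells, by 0.58, just under the call, and 0.97. With AT2 cells taken by clusters, Slfn5 had -0.13 (-0.56 to 0.28) in the Hgf pair. The Hgf value of Ifit3 in AT2-like cells was also under the call. Isg15 was below its control in each of these epithelial comparisons, by log2 ratios of -1.80 and -1.92 in AT2-like cells and -1.70 and -2.07 in AT1-like cells. Rtp4, a chaperone gene induced by interferon, was likewise lower in all, with -1.47 and -2.0 in AT2-like and -1.47 and -2.01 in AT1-like cells. Oasl2 had -0.81 and -1.82 in AT2-like and -1.55 and -2.45 in AT1-like cells, so it was called lower in all 4 comparisons. The other members followed in every class were less even. In Bdnf AT2-like cells Irf7 (-0.04), Stat2 (-0.38), Bst2 (-0.50), Ifi27l2a (-0.55), Gbp2 (-0.52), Igtp (-0.49) and Usp18 (0.12) were all under the call. In Hgf AT2-like cells Ifi27l2a (57 and 2 UMIs, -3.98), Gbp2 (-0.92), Stat2 (-0.71) and Igtp (-0.59) were called lower, and Irf7 (-0.30), Bst2 (-0.45) and Usp18 (0.47) were not called. The same pairs differed in AT1-like cells, where Ifi27l2a was not measured. In Bdnf AT1-like cells Gbp2 (-0.83) was called lower, and Irf7 (0.01), Stat2 (0.03), Bst2 (-0.39), Igtp (-0.21) and Usp18 (-0.56) were not called. In Hgf AT1-like cells Irf7 (-2.03), Stat2 (-1.02), Bst2 (-1.30), Igtp (-0.74) and Usp18 (-1.07) were called lower and Gbp2 (-0.43) was not. Markers of other classes moved with the genotype in these cells, and their part was not tested. In AT2-like cells the 8 endothelial markers were at 227 and 382 CPM in the Bdnf pair and 223 and 442 CPM in the Hgf pair, the 5 club markers at 869 and 1377 CPM and 705 and 1595 CPM, and the 8 AT2 markers at 100089 and 94955 CPM and 105289 and 76094 CPM. In AT1-like cells the endothelial markers were at 447 and 676 CPM and 583 and 1207 CPM and the club markers at 680 and 1712 CPM and 718 and 1876 CPM. None of the markers of these lists was at 0.

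CD45 depletion left few leukocytes in the lungs. Immune-like cells numbered 60 and 34 in the Bdnf pair, too few for most members, and 98 and 101 in the Hgf pair, where 11 of 12 measured members were called lower and none higher (21.5% and 18.1% of all genes; median -1.21), among them Stat2 (33.3 and 30 UMIs, -0.94). The make-up of this class differed between the libraries: neutrophil-like cells numbered 7 and 20, macrophage- or monocyte-like cells 11 and 6 and B-like cells 17 and 10, and the part of this in the ratios was not tested. In lung pericyte-like cells, a class in which the Cre is driven, 8 of 14 measured members were called lower and 1 higher in the Bdnf pair (17.3% and 13.3% of all genes; median -0.72), from 100 and 118 cells, and 4 of the 14 intervals lay below 0. In both Bdnf libraries 0% of these cells lay in clusters named for pericytes. The 8 pericyte markers were at 8234 and 10159 CPM in them and the 8 fibroblast markers at 3844 and 4422 CPM, and the part of this was not tested. Ifit3 had 24.5 and 4 UMIs there (-2.22) and Oasl2 25 and 12 UMIs (-0.66), while Stat2, at 23 and 25.8 UMIs, had 0.57. Stress genes were at 4686 and 8541 CPM in these cells, the 5 club markers at 469 and 1430 CPM, the 8 AT2 markers at 2073 and 3007 CPM and the 8 immune markers, of which 3 and 6 were at 0, at 49.8 and 14 CPM, and their part was not tested. In the Hgf pair only 3 members were measured in pericyte-like cells. Free RNA had the same direction: in barcodes without a cell 13 of 26 measured members were called lower and 1 higher in the Bdnf pair (8.69% and 7.5% of all genes; median -0.58) and 20 of 30 lower and none higher in the Hgf pair (12.7% and 17.6%; median -0.90).

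**Figure D3:**
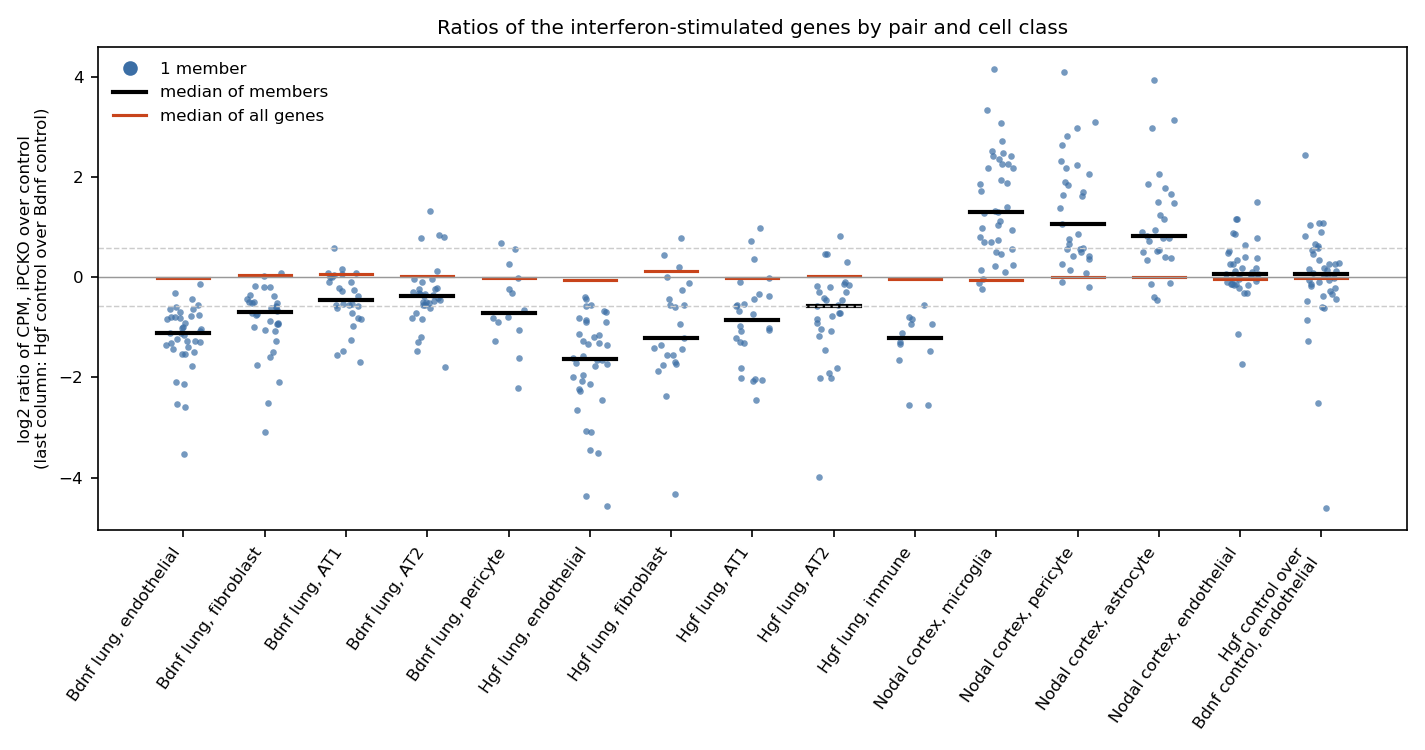
Log2 ratio of CPM (vertical axis, iPCKO over control, and in the last column Hgf control over Bdnf control) of each measured member (blue points) by pair and cell class, with the median of the members (black) and of all genes (red) and dashed lines at 1.5-fold. The medians lie below 0 in the 10 lung columns of mutant over control, from -0.38 to -1.63. They lie above 0 in cortical microglia (1.30), pericytes (1.06) and astrocytes (0.82). Near 0 are those of cortical endothelium and of endothelium compared between the control lungs.

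In the Nodal cortex the direction was the opposite in microglia. In microglia-like cells (880 control and 1432 mutant cells) 39 members were measured, 29 were called higher and none lower, against 8.56% and 10.6% of 14305 genes. The median log2 ratio was 1.30 beside -0.06 for all genes, and the interval lay above 0 for 32 members and below 0 for 1. Since the minimum applied to both libraries together, 12 of the 39 had under 10 UMIs in the control and were measured through the mutant. Of the 27 with at least 10 UMIs in the control, 17 were called higher and none lower, with a median of 0.79. The shares of all genes given here and below are for whole classes without this limit, so such subsets have no matching share. Ifi206, Oas3 and Gbp6 were not measured.

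Among the families of antiviral effectors, 4 of 4 measured IFIT genes, 4 of 4 OAS genes and 4 of 4 Mx and viperin-type genes were called higher. Many of them had under 10 UMIs in the control and were measured through the mutant, so their ratios are not ranked against other roles. Ifit3 had 9.5 and 168 UMIs, or 1.69 and 17 CPM (log2 ratio 3.33, 2.34 to 4.34), and the sum of Ifit3 and Ifit3b had 12 and 191 UMIs (3.18, 2.34 to 4.16). Rsad2 had 4 and 125 UMIs (4.15, 2.76 to 6.05), from a control close to 0. Oasl2 was at 5.97 and 31.9 CPM (2.42, 1.88 to 2.95) and Mx1, a GTPase that blocks viral replication, had 6 and 60 UMIs (2.51, 1.30 to 4.01). Mx2 was at 6.06 and 10.1 CPM (0.74, 0.17 to 1.35).

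In the other roles some members were called higher and some were not. Among the transcription factors Irf7 was at 2.49 and 12 CPM (2.26, 1.46 to 3.18), Stat2 at 30.1 and 48.7 CPM (0.69, 0.44 to 0.95) and Irf9 at 77.7 and 90.2 CPM (0.22, 0.05 to 0.38), so only Irf9 stayed under the call. Isg15 was at 4.1 and 15.2 CPM (1.89, 1.25 to 2.59) and Usp18 at 1.43 and 4.66 CPM (1.71, 0.61 to 3.0), while Herc6 had 15.1 and 14 CPM (-0.11). Slfn2 was at 86 and 211 CPM (1.30, 1.15 to 1.44) and Slfn5 at 12.6 and 57.2 CPM (2.18, 1.82 to 2.55), so Slfn5, the gene nearest to its control in lung endothelium, was well above it here. Ifi27l2a was at 21.6 and 97.6 CPM (2.18, 1.90 to 2.46), Rtp4 at 9.34 and 44.4 CPM (2.25) and Bst2 at 37.9 and 55.7 CPM (0.55, 0.32 to 0.79), under the call.

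The interferon-inducible GTPases, all called lower in lung endothelium, were mostly near their control in microglia, with a median of 0.31 and 2 of 6 called higher. Gbp2 was at 5.7 and 12.4 CPM (1.12, 0.55 to 1.73), but Igtp had 14.6 and 16.2 CPM (0.15, -0.24 to 0.55), Irgm1 26 and 28.1 CPM (0.11) and Gbp7 143 and 121 CPM (-0.24, -0.37 to -0.11). The sum of Gbp2, Gbp3 and Gbp7 was 160 and 148 CPM (-0.11, -0.23 to 0.02).

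Border macrophage-like cells, of which there were 16 and 19, had the highest summed level in the cortex, 3198 and 3549 CPM, with a median log2 ratio of 0.10 over 10 measured members. With each microglia-like cell left out that had a UMI of Ms4a7 or of a border macrophage marker, a choice made after seeing the data, 29 of 36 measured members were called higher and the median was 1.30. The share of all genes called without these cells is not given. In microglia-like cells the 6 border macrophage markers summed to 104 and 75.1 CPM, with 1 at 0 in both libraries, and the 8 homeostatic microglia genes to 13603 and 9240 CPM. The 10 genes of disease-associated microglia were at 1506 and 2313 CPM and the stress genes at 4317 and 3474 CPM. The part of these lists in the result was not tested.

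Other cortical classes differed in direction. In pericyte-like cells (271 and 401 cells) 19 of 31 measured members were called higher and none lower (8.13% and 7.44% of all genes; median 1.06), and 12 of the 31 had under 10 UMIs in the control. Of the 19 with at least 10 UMIs in the control, 8 were called higher and none lower, with a median of 0.57, and this subset has no matching share of all genes. Isg15 had 40 and 166 UMIs (1.37, 0.86 to 1.91), Ifit3 had 15 and 113 UMIs (2.23, 1.45 to 3.11), Usp18 had 5 and 40 UMIs (2.32) and Irf7 had 7 and 35 UMIs (1.64). Rsad2 had 0 and 82 UMIs, which is at least 17-fold higher with 3 UMIs set for the control library. Gbp2 had 11 and 66 UMIs (1.90), Bst2 29 and 79 UMIs (0.76) and Igtp 8.5 and 21.5 UMIs (0.66, with an interval of -0.45 to 2.15). Oasl2, with 135 and 290 UMIs (0.42), Stat2, with 44.3 and 105 UMIs (0.57), and Slfn5, with 184 and 257 UMIs (-0.20), were under the call, and Ifi27l2a was not measured.

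Much of the members' signal in mutant pericyte-like cells lay in a few cells. In the mutant, 9 of the 345 pericyte-like cells deep enough to be thinned to 3000 UMIs (2.61%) held 10 or more distinct members, and 0 of 226 control cells did. These 9 cells had 3.03% of the UMIs of all 401 mutant pericyte-like cells but 38.7% of the members' UMIs, with 92.7% of its Rsad2, 82.5% of its Usp18, 56.0% of its Isg15, 57% of its Ifit3 and 28% of its Ifi203. The 9 cells were chosen by the members' values, so leaving them out was bound to lower the members' level in the mutant. Without them, 5 of 23 measured members were called higher and the median was 0.27. In the whole class 8.13% of all genes were called higher. The pericyte markers of the 9 cells were at 32452 CPM, beside 35007 CPM in the other mutant pericyte-like cells, and the 10 microglia markers at 129 and 144 CPM. None of the 9 cells was above the doublet score limit.

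In astrocyte-like cells (759 and 869 cells) 17 of 27 measured members were called higher and none lower (6.38% and 6.56% of all genes; median 0.82), and 8 of the 27 had under 10 UMIs in the control. Of the 19 with at least 10 UMIs in the control library, 9 were called higher and none lower, and the median was 0.55. This subset has no matching share of all genes. Ifit1 had 3 and 55 UMIs (3.94, 2.32 to 6.26), Oasl2 7 and 66 UMIs (2.98, 1.86 to 4.35), Ifit3 23 and 94 UMIs (1.78, 1.10 to 2.50) and Isg15 5 and 25 UMIs (2.06, 0.65 to 3.81). Igtp had 1.65, Usp18 1.49, Bst2 0.79 and Irgm1, at 21.3 and 39.9 CPM, 0.91, all past the call, although the interval of Bst2 was -0.14 to 1.78. Stat2, at 28.1 and 41.1 CPM (0.55), and Gbp2, with 12 and 13 UMIs (-0.14), were under it, and Irf7 and Ifi27l2a were not measured. Stress genes in this class were at 3480 and 5862 CPM, and their part was not tested.

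Cortical endothelial-like cells (816 and 1473 cells) had 7 of 38 measured members called higher and 2 lower, against 5.36% and 7.86% of all genes, and the median was 0.06. Isg15 was at 30.9 and 31.9 CPM (0.04, -0.17 to 0.25), Usp18 at 11.1 and 11.7 CPM (0.07, -0.28 to 0.42), Stat2 at 38.1 and 39.6 CPM (0.06, -0.13 to 0.25) and Oasl2 at 28.6 and 28.5 CPM (-0.01, -0.22 to 0.22), so these genes lay close to their control. The 7 called higher were Ifit2, Ifit3, Ifit3b, Oasl1, Dhx58, Rsad2 and Cmpk2, with Ifit3 at 2.55 and 4.64 CPM (0.86, 0.19 to 1.59), Ifit2 at 2.02 and 4.5 CPM (1.16) and Rsad2 at 5.63 and 9.71 CPM (0.79). Those below were Ifi203, at 32.8 and 14.9 CPM (-1.14, -1.39 to -0.89), and Ifi204, and the sum of the 3 Ifi200 genes had -1.16 (-1.40 to -0.92). Irf7 was at 10.6 and 14 CPM (0.40), Gbp2 at 29.7 and 32.2 CPM (0.11), Igtp at 13.9 and 16.6 CPM (0.26), Bst2 at 64.5 and 58.8 CPM (-0.13) and Ifi27l2a at 0.849 and 0.775 CPM (-0.13). In fibroblast-like cells of the cortex the median was -0.21 over 20 members, in neuron-like cells -0.21 over 8 and in smooth muscle-like cells -0.35 over 6.

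**Figure D4:**
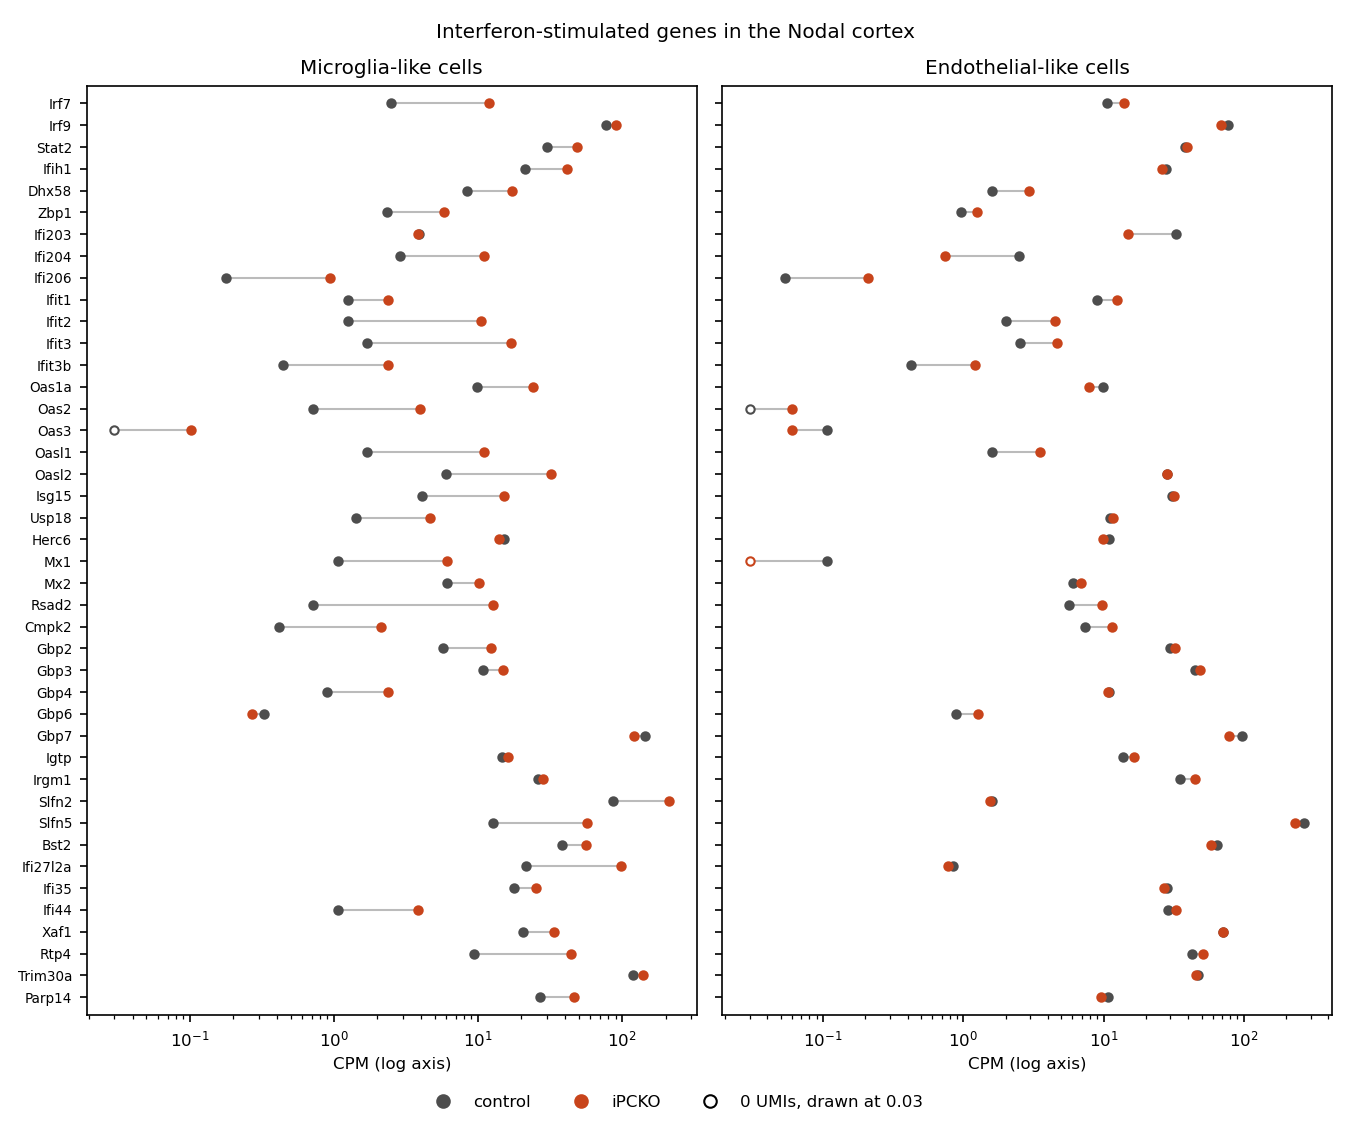
CPM (log axis) of each of the 42 genes in microglia-like cells (left) and endothelial-like cells (right) of the Nodal control (grey) and iPCKO (red) cortex, 1 library per point, with open points for 0 UMIs. Most red points lie right of the grey points in microglia, such as those of Ifi27l2a (21.6 and 97.6 CPM), whereas the points nearly coincide in endothelium except for 2 genes called lower, Ifi203 and Ifi204, and 7 called higher.

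The members were also counted in single microglia-like cells. After thinning to 3000 UMIs, which left out 45 of 880 control and 78 of 1432 mutant cells, the mean was 2.23 member UMIs per control cell and 3.81 per mutant cell. At least 5 distinct members were found in 48 of 835 control cells (5.75%, 95% interval 4.27 to 7.55) and 247 of 1354 mutant cells (18.2%, 16.2 to 20.4), and these cells held 21.2% and 48.5% of the members' UMIs. Without thinning the shares were 20.3% and 41.1%. In astrocyte-like cells, where most members are low, the thinned shares were 0.298% and 1.29%, with median depths of 10021 and 10683 UMIs beside 6092.5 and 6393.5 UMIs in microglia-like cells. Cortical endothelial-like cells had thinned shares of 15.0% and 16.4%, at means of 3.51 and 3.28 member UMIs per cell. Pericyte-like cells had 6.64% and 9.86%. A share past a fixed cut rises with the mean level, so it does not by itself measure unevenness or mark a trait of microglia. The cut at 5 marks a range and no cell type: 57 and 129 cells held 4 members and 23 and 81 held exactly 5.

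The upper end reached further in the mutant. The variance over the mean of the member UMIs per cell was 2.42 in control and 4.96 in mutant microglia, beside 1.76 and 2.51 in endothelial-like, 1.67 and 2.69 in astrocyte-like and 1.62 and 22.2 in pericyte-like cells. A single microglia-like cell held up to 15 distinct members in the control library and up to 26 in the mutant library. The top 5% of cells held 20.4% and 22.2% of the members' UMIs in microglia, close to each other, but 16% and 43.5% in pericyte-like cells. In the mutant 10.3% of microglia-like cells had no member UMI, against 19.3% of control cells. The 36 mutant microglia-like cells with 10 or more distinct members (2.51%) held 15.4% of the members' UMIs, and without such cells in either library, a choice made after seeing the data, 24 of 36 measured members were called higher and the median was 0.90. Such cells were chosen by the members' values, so the lower median is partly set by that choice. The share of all genes called without them is not given.

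**Figure D5:**
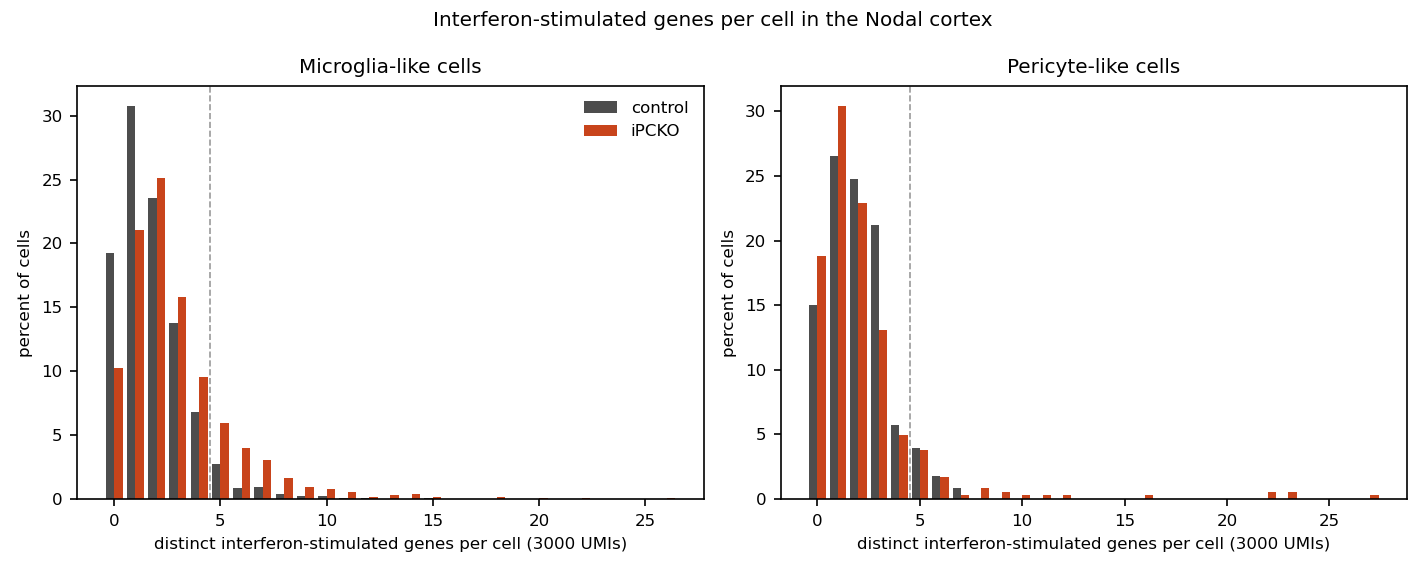
Percent of cells (vertical axis) by the number of distinct interferon-stimulated genes in a cell after thinning to 3000 UMIs (horizontal axis) for microglia-like (left) and pericyte-like cells (right) of the Nodal control (grey) and iPCKO (red) cortex, with a dashed line at the cut of 5. Right of the line lie 5.75% of control and 18.2% of mutant microglia, and in mutant pericytes 9 cells lie at 10 or more.

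Single members were seen in few cells. Ifit3 had a UMI in 0.719% of control and 3.25% of mutant thinned microglia, Oasl2 in 1.44% and 7.24%, Isg15 in 1.32% and 3.47% and Irf7 in 0.599% and 2.66%, whereas Slfn2 had one in 16.6% and 38.1%. Members tended to be found in the same mutant cells. Of the 44 mutant microglia with a UMI of Ifit3, 43.2% also had Oasl2, against 6.03% of the other 1310 cells, 22.7% had Isg15 against 2.82%, 22.7% had Irf7 against 1.98%, and 11.4% had Usp18 against 0.840%. For Igtp the shares were 9.09% and 4.27%. The control had only 6 such cells. These shares describe cells of 1 library, and cells with more RNA have more chances to hold both genes, although all were thinned alike.

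The other genes of the interferon pathway, from a list of 45 of which 44 were in the files, had medians nearer to those of all genes than the members had. Single chemokine genes of this list, given below, lay further from their control than any member. In Bdnf lung endothelial-like cells 28 of them were measured, 4 were called lower and 2 higher (7.54% and 8.49% of all genes; median -0.15). In the Hgf pair 9 of 28 were called lower and 1 higher (17.1% and 14.5%; median -0.31), and in cortical microglia 4 of 32 were called higher and none lower (8.56% and 10.6%; median 0.03).

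Of the 6 receptor chain genes, none was called in Bdnf endothelium or, of the 5 measured, in microglia, while 1 was called lower and 1 higher in Hgf endothelium. Ifnar1 had log2 ratios of -0.15, 0.14 and 0.48 in Bdnf endothelium, Hgf endothelium and microglia, Ifnar2 -0.40, -0.20 and -0.03, and Ifngr2 -0.01, -0.26 and 0.29. Ifngr1 had -0.31 and -0.53 in the Bdnf endothelium and in microglia, and -0.73 in the Hgf endothelium, where it was called lower. Ifnlr1, a chain of the type III interferon receptor, was the gene called higher there, from 15 and 30 UMIs (0.73, -0.21 to 1.73). The kinases Jak1, Jak2 and Tyk2 were not called in any of the 3. Of the sensors upstream of interferon, Rigi, the RNA sensor RIG-I, was at 56.2 and 40.7 CPM (-0.47), 52 and 24.7 CPM (-1.07) and 17 and 23.7 CPM (0.48), and Sting1, the adaptor of DNA sensing, had -0.29, -1.43 and -0.37. Of 4 brakes on the pathway, 2 were called higher in Bdnf endothelium, Socs1 (4.14 and 7.84 CPM, 0.92, 0.57 to 1.28) and Ptpn6 (22 and 37.5 UMIs, 0.69, -0.09 to 1.54). In Hgf endothelium Ptpn6 was called lower (18 and 14 UMIs, -0.63, -1.75 to 0.46), and none of the 4 was called in microglia.

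Chemokines that interferon induces were among the genes of this list past the call. Cxcl10, which attracts T cells, had 92 and 25 UMIs in Bdnf endothelium (-1.96, -2.66 to -1.31), 72 and 7 UMIs in Hgf endothelium (-3.63, -5.0 to -2.52), and 1604 and 8005 UMIs in microglia (1.51, 1.43 to 1.58). Cxcl9, mainly a target of type II interferon, had 310 and 2 UMIs in Hgf endothelium (-7.55, -10.60 to -5.68) and 2 and 4 UMIs in Bdnf endothelium. Ccl5 had 33 and 2 UMIs in Bdnf endothelium (-4.12) and 18 and 587 UMIs in microglia (4.21, 3.54 to 4.98), and Ccl12, a monocyte attractant, 1697 and 10302 UMIs in microglia (1.79, 1.71 to 1.86). Cxcl9 was under the call in microglia (12 and 28 UMIs, 0.41, -0.61 to 1.52) and not measured in Bdnf endothelium. In cortical endothelium, where the members' median was 0.06, Cxcl10 was at 16.7 and 30.9 CPM (0.89, 0.63 to 1.16), Ccl5 at 0.106 and 5.72 CPM and Ccl12 at 0.318 and 1.13 CPM. Microglia-like cells had Ccl12 at 302 and 1044 CPM, and the 10 microglia markers were at 122 and 108 CPM in endothelial-like cells beside 29414 and 25324 CPM in microglia-like cells, so no change of Ccl12 is read in endothelium, and the part of microglial RNA in the other values was not tested. In cortical pericyte-like cells Cxcl10 had 10 and 243 UMIs (3.92), of which 61.3% were in the 9 cells described above.

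The interferons themselves were hardly detected. None of the 11 ligand genes reached 20 UMIs in lung or cortical endothelium, microglia, pericytes or astrocytes of the cortex. Ifnb1, which encodes interferon beta, had 15 UMIs in 8 cells of the Nodal iPCKO cortex, all of them microglia-like (8 of 1432, 0.559%, 95% interval 0.241 to 1.10), and 0 UMIs in the cells of the other 5 libraries. In the control cortex 0 of 880 microglia-like cells had a UMI of it, with an exact 95% interval that reaches 0.418% and overlaps that of the mutant. The 8 cells held 4 to 13 distinct members, with a median of 10 beside 4 in all mutant microglia-like cells, and 7 of them had a UMI of Ccl12 and 7 of Cxcl10. They were also deeper, with a median of 11620.5 UMIs beside 6393.5, and the part of depth in their member and chemokine counts was not tested. Both chemokines were plentiful in mutant microglia-like cells at large. In those with under 5 distinct members Ccl12 was at 924 CPM and Cxcl10 at 725 CPM. Ifng had 0 UMIs in these classes of all 3 pairs.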

How the data were processed

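Cells of 6 BD Rhapsody whole-transcriptome libraries, each from 2 mice, were measured. According to the methods and the processing notes, the authors aligned the reads with STAR 2.7.10a to GRCm39 with a Gencode annotation and deposited, per barcode and gene, estimated counts of UMIs in which multimapping reads were divided by expectation maximisation, so that near-identical genes can share reads and values need not be whole. The deposited values were summed as they stand and rounded to whole UMIs for the marker gate, the thinning and the intervals. Total depths were 33889545 to 186701379 UMIs per library over all barcodes, and barcodes with at least 1500 UMIs (700 in Hgf) were kept as cells. A cell took the class with the highest share of its markers detected, given at least 3 markers and a margin of 0.25 in that share over the next class; a marker counted when its UMIs reached 0.5 times those its share of barcodes without a cell would give. Other cells stayed unassigned, which removes cells with many markers of 2 classes, and no doublet caller was run in the main analysis. Sums per library and class were divided by the class total. Ratios have exact conditional 95% intervals, a count of 0 was set to 3 UMIs, and no test was made because each group was 1 library. The scripts were tested on simulated data. The 42 members, the pathway list and the markers were chosen with earlier results of these data known. Members past 1.5-fold with an interval excluding equality could be named, not all of which were, and Ifit3, Isg15, Irf7, Stat2, Bst2, Ifi27l2a, Gbp2, Igtp, Usp18 and Oasl2 in each main class where measured. Other members and pathway genes were named after their values were seen. Values of some genes of the pathway list are not reported here. Promoters were read from the GRCm39 genome at transcript starts of GENCODE vM39. The alternatives were other UMI minimums, Leiden clusters (resolution 2) in place of the gate, a stricter gate, centring on all genes, minimums of 10 or 50 UMIs, Scrublet at a common score limit per pair, a limit of 20% mitochondrial UMIs and a 2-fold call. Python 3.11.15, numpy 2.4.6, scipy 1.17.1, pandas 2.3.3, scanpy 1.11.5, scikit-learn 1.9.0, leidenalg 0.10.2 and matplotlib 3.10.9 were used.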

Additional observations from a re-analysis of the deposited data

Results flagged for a closer look

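Pericyte-like cells and the sum of all cells went opposite ways in lung and cortex. The members' median log2 ratio of mutant over control in pericyte-like cells was -0.72 in the Bdnf lung (14 measured members), -0.48 in the Hgf lung (3 measured members) and 1.06 in the Nodal cortex (31 measured members). Between the 2 control lungs it was -0.52 in this class (9 measured members), and the Bdnf value was -0.34 at a minimum of 3000 UMIs per cell. Over all cells of the library the median was -0.67 in the Bdnf lung, -0.98 in the Hgf lung and 0.46 in the Nodal cortex. The make-up of the cortex libraries differed, and its part in this value was not tested. Astrocyte-like cells were 23.4% of control and 17.3% of mutant cells, and endothelial-like cells 25.2% and 29.4%. These values stand out because the effects of 1 library pair oppose those of the other pairs. The difference itself was not tested, since each genotype was 1 library, and tissue, age and deleted gene differed together and cannot be told apart. Without the 9 mutant cells that held 10 or more distinct members, the cortical pericyte median was 0.27. These cells were chosen by the members' values, so the lower median is partly set by that choice.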

How the results depend on the processing

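No paired analysis was possible because each genotype was 1 library, and no replicate could be left out for the same reason. No list median reversed. All counts and shares but the 24 given here stayed within 1.5 times the main value or within its exact interval. List medians were held to the median half-width of the single members' counting intervals, which is wide in small classes and does not show a median to be stable. It was 0.84 in cortical pericytes, where the median ranged from 0.27 to 1.47. In Hgf fibroblasts it was 1.05, with medians from -1.36 to -0.60. Direction was followed only for members past 1.5-fold with an interval excluding equality in the main analysis. Minimums of 10 or 50 UMIs leave their ratios unchanged and centring moves them little, so part of the agreement was fixed beforehand. The direction was kept in 966 of 966 such values of lung endothelium and microglia and in 2147 of 2150 over 14 comparisons, with 3 exceptions under Leiden clusters. These were Slfn5 in the Hgf lung, which went from 0.82 to -0.13 in AT2 cells and from -2.55 to 0.14 in immune cells, and Ifit3b in Bdnf AT2 cells, which went from 0.79 to -0.13. The cause was not tested. The count called lower ranged from 24 to 36 in Bdnf and 28 to 35 in Hgf lung endothelium, and the count called higher from 23 to 30 in microglia. Shares of all genes called under the settings that follow are not given, so these counts are not set against a background. At a 2-fold call 11 of 27 astrocyte and 3 of 38 endothelial members were higher in the cortex. In the Bdnf lung 4 of 28 AT1, 4 of 33 AT2, 9 of 34 fibroblast and 4 of 14 pericyte members were lower. In the Hgf lung 9 of 30 AT2 and 7 of 12 immune members were lower. At a minimum of 50 UMIs 10 of 16 astrocyte and 10 of 20 pericyte members were higher in the cortex. There were 3 of 5 pericyte members lower in the Bdnf lung, and 7 of 13 fibroblast and 6 of 6 immune members lower in the Hgf lung. Centring on all genes gave 14 of 28 AT1 members lower and Leiden clusters 14 of 32 AT2 members lower in the Bdnf lung. A minimum of 3000 UMIs per cell gave 3 of 8 pericyte members lower there. Without cortical pericytes of 10 or more members, a choice made after seeing the data, 5 were higher, and without such microglia the log2 ratio of Ifit3 was 2.27. The share of microglia past the cut was 12.6% in the control and 27.8% in the mutant with 1 member fewer, 2.99% and 12.3% with 1 more, and 20.3% and 41.1% without thinning, where the ratio of shares went from 3.17 to 2.02. Leiden clusters gave no value for Bdnf pericytes. Depth limits the small lung classes, such as pericytes, smooth muscle and immune cells, where few members reached 20 UMIs.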

Other observations

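Some genes outside the list were higher in the microglia-like cells with at least 5 distinct members than in the other microglia-like cells of the same library. These cells were chosen by the members' values, so the comparison is a description without a test. Over genes with at least 20 UMIs in these cells, the 10 highest ratios in the control (48 cells) were those of Cxcl13, a B cell attractant (34 and 0 UMIs), Ms4a7, a gene of border macrophages (42 and 20 UMIs), Ifi202b, Gm16189, Cp, Cybb, Aoah, Axl, Sp100 and Gpr65. In the mutant (247 cells) they were those of Marco, a scavenger receptor gene (23 and 3 UMIs), Ifi209 (32 and 9 UMIs), Gm28052, Cxcl11 (24 and 10 UMIs), Ifi211 (65 and 30 UMIs), Ms4a7 (60 and 29 UMIs), Ap3b2, Isg20, Phf11d and Hepacam. Border macrophage markers were at 334 CPM in the high cells and 90.1 CPM in the rest of the control, and at 98.1 and 68.9 CPM in the mutant. Homeostatic microglia genes were at 10606 and 13977 CPM in the control and 8124 and 9577 CPM in the mutant, and genes of disease-associated microglia at 3530 and 1380 CPM and 2637 and 2258 CPM.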
